A study of Rattus norvegicus with 6 samples.

Results

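Glycolysis, the pentose phosphate pathway and glycogen metabolism were followed through 42 genes, together with lactate handling, the pyruvate dehydrogenase kinases and the phosphoenolpyruvate (PEP) carboxykinases. Genes were taken by symbol from the array's annotation, and 33 of the 42 had a feature named for them alone, among 18166 genes measured that way. The other 9 are not analysed here: Tpi1, Gapdh, Eno1, Pkm and Pgd are named only on features that carry several symbols, and Hk1, Pgam1, Gbe1 and Ppp1r3c were matched to no feature. The cells were adipose-derived stem cells (ADSCs), stromal precursors that can become adipocytes, grown from inguinal fat of female Wistar rats aged 2 weeks. Control cells (3 arrays) grew in alpha-modified Eagle medium with 10% fetal bovine serum. Induced cells (3 arrays) spent 7 days in the same base medium with 20% serum, 0.5 mM 3-isobutyl-1-methylxanthine (a phosphodiesterase inhibitor that raises cAMP), 1 µM dexamethasone (a synthetic glucocorticoid) and 5 µg/ml insulin. Serum therefore differed together with the inducers, and the effects of the single agents cannot be told apart. The labels call the arrays biological replicates but do not say whether cultures came from separate animals or how long control cells were grown. The p-values therefore measure the spread between these arrays.

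Glycolysis splits glucose to pyruvate, which is either reduced to lactate and exported or taken into mitochondria, where pyruvate dehydrogenase turns it into acetyl-CoA. The pyruvate dehydrogenase kinases switch that enzyme off. The pentose phosphate pathway branches off at glucose 6-phosphate and yields ribose and NADPH, and glycogen is built from the same precursor. In fat cells glucose also supplies the glycerol backbone of triglycerides, and the cytosolic PEP carboxykinase Pck1 makes that backbone from pyruvate-derived carbon when glucose is scarce.

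Values are log2 signals, and every change is induced minus control with the standard error (SE) of the fit, so 1 is a doubling. A gene is said to have risen or fallen only where its limma p-value, adjusted over all 18166 genes by the Benjamini-Hochberg method, was under 0.05. Among the control arrays the correlation over all genes was r = 0.9817 to 0.9870. It was higher between induced replicates 1 and 2 (r = 0.9944, 24 genes over 2-fold apart), and lower between each of them and induced replicate 3 (r = 0.9614 and 0.9612, with 1526 and 1566 genes over 2-fold apart). The values of induced replicates 1 and 2 were not identical, and the labels do not say whether they share a culture. The 10 adipocyte markers checked had a mean of 6.85 to 8.62 on control arrays, highest on control replicate 1, and of 10.78 to 11.57 on induced arrays, highest on induced replicate 3. Results are therefore given over 6 arrays, and also without induced replicate 3 where that moves them. Without it the spread of the induced group rests on those 2 close arrays.

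The clearest changes were those of 1 lactate transporter gene and of 1 aldolase gene. Slc16a1, which encodes the lactate and pyruvate transporter MCT1, rose by 1.77 (SE 0.22, adjusted p = 0.0313), a 3.40-fold rise. Aldoc, the aldolase isoform best known from brain, fell by 1.37 (SE 0.14, adjusted p = 0.0198), to 0.387 of the control level. These were the 2 called genes of 33 (6.06%), where 0.749% of all genes were called, 0.479% as higher and 0.27% as lower. Most others had positive estimates that did not pass: 25 of 33 were above 0, where 47.6% of all genes were, with a median of 0.53 against -0.01 over all genes. At an unadjusted p under 0.05 there were 16 of 33, against 17.6% of all genes. The 3 arrays of one group lay wholly to one side of the other for 18 of 33 genes (54.5%), 15 higher and 3 lower in induced cells. Over all genes that share was 25.4%, with 12% higher and 13.4% lower. Leaving out an array cannot undo such a separation and can only add genes. Without induced replicate 3 the count of the 33 stayed at 15 higher and 3 lower. The shares of all genes grew to 17.5% wholly higher and 18.3% wholly lower.

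**Figure D1:**
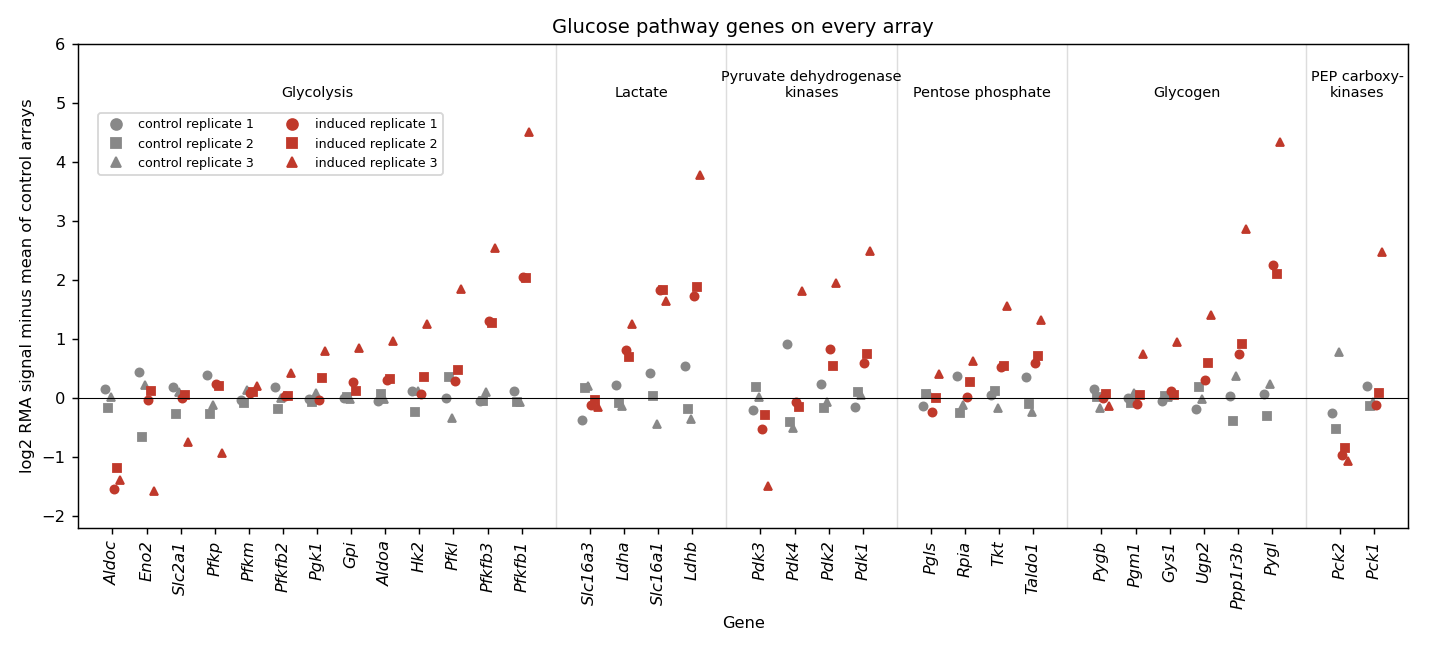
Log2 signal of each of the 33 genes on every array, as the difference from the mean of the control arrays, by branch. Grey marks are control and red marks induced arrays, and the shape gives the replicate. Slc16a1 and Aldoc separate the groups with induced arrays close together, while for Pfkfb1, Pygl, Ldhb and Pck1 induced replicate 3 (triangle) lies 1.98 to 2.48 above the mean of the other induced arrays.

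The size of the estimates depended on 1 array. Induced replicate 3 held the highest of the 6 values for 24 of 33 genes (72.7%, against 26.0% of all genes) and the lowest for 5. It lay over 1 log2 unit from the mean of induced replicates 1 and 2 for 15 of 33 genes, which is 45.5% against 8.20% of all genes. Without it the median change of the 33 genes was 0.19. At the same time 7 of 33 genes were then called (21.2%, against 3.07% of all genes), 6 higher and 1 lower (2% and 1.07% of all genes). The 6 that rose on these 5 arrays were Slc16a1, Ldhb, Ldha, Pfkfb1, Pfkfb3 and Pygl, and Aldoc fell. In the same fit 7 of 10 adipocyte markers and 2 of 10 macrophage and leukocyte markers were also called higher, and their part in the 7 calls was not tested. With induced replicates 1 and 2 averaged to 1 sample and induced replicate 3 kept, limma called 0 of 33 genes and 0.011% of all genes, with 15 of 33 at an unadjusted p under 0.05. The calls of Slc16a1 and Aldoc were also lost without control replicate 2, control replicate 3, induced replicate 1 or induced replicate 2, each of which left 0 of 33 called by limma. These fits called 0.0826%, 0.11%, 0.011% and 0.143% of all genes in turn, and 11, 10, 17 and 17 of the 33 had an unadjusted p under 0.05. Over all genes the share at that unadjusted level was counted only for the 6-array fit (17.6%). The counts of 15, 11, 10, 17 and 17 therefore have no share to be read against.

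**Figure D2:**
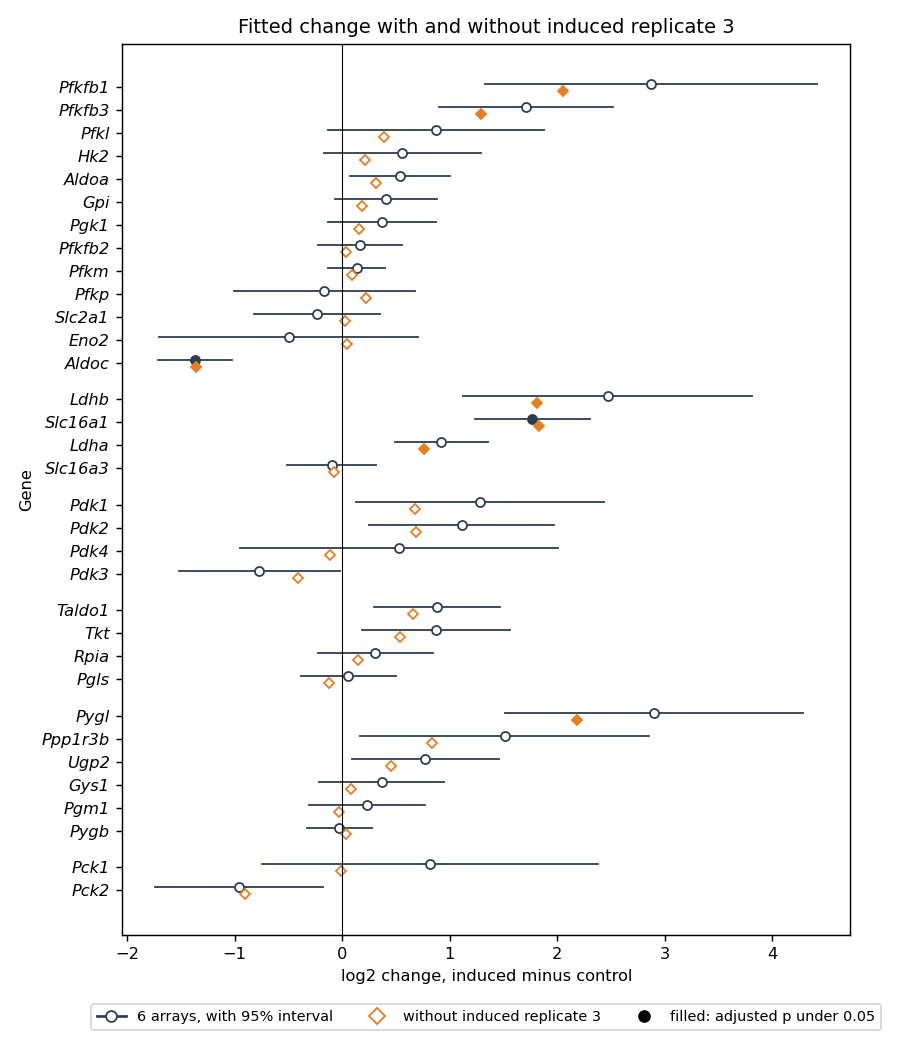
Fitted log2 change of each gene, induced minus control, over 6 arrays (circles, with 95% intervals of the fit) and without induced replicate 3 (orange diamonds). Filled marks have an adjusted p under 0.05. Over 6 arrays Slc16a1 and Aldoc are filled; over 5 arrays Pfkfb1, Pfkfb3, Ldha, Ldhb and Pygl are filled as well.

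**Figure D3:**
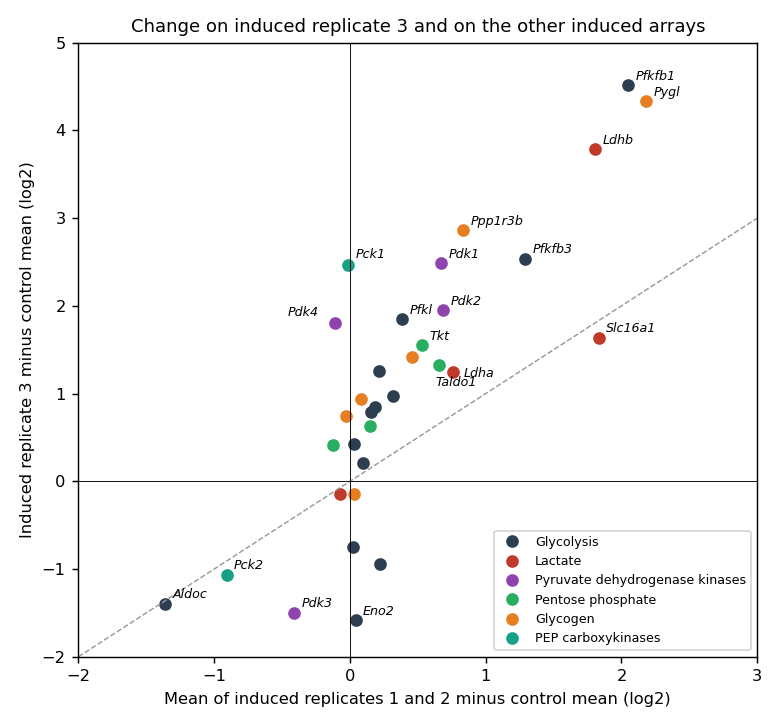
Change on induced replicate 3 (vertical) against the mean change on induced replicates 1 and 2 (horizontal), both as log2 differences from the same control mean. The dashed line marks equal change. Slc16a1 lies just below it, Aldoc and Pck2 lie close to it, and Pck1 and Pdk4 lie far above 0 on induced replicate 3 and near 0 on the others.

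The sequence before the start site is shown for the 2 called genes and for Ldha and Pfkfb3, picked because they, like Slc16a1, hold the palindrome CACGTG (an E-box, bound by factors such as Myc and ChREBP). CACGTG contains ACGTG, the core of the site of hypoxia-inducible factors, and Aldoc holds ACGTG only. Of the other genes called without induced replicate 3, Pygl holds ACGTG but not CACGTG, and Ldhb and Pfkfb1 hold neither. Each is the 250 bases before the RefSeq start on GRCr8, read on the gene's strand from 5′ to 3′, with every ACGTG on either strand in capitals. Slc16a1 is at chr2:194812410-194812659, Aldoc at chr10:63715294-63715543, Ldha at chr1:106507842-106508091 and Pfkfb3 at chr17:71944683-71944932, all on the plus strand.
Slc16a1: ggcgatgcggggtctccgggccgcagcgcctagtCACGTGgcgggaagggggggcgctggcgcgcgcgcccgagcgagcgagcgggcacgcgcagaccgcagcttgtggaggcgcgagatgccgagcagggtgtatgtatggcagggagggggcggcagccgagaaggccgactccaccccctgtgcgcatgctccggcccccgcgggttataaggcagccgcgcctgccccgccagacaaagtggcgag
Aldoc: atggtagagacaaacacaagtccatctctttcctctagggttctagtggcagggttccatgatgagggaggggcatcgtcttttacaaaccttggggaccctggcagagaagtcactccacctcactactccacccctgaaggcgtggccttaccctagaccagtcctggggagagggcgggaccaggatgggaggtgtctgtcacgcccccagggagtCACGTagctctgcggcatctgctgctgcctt
Ldha: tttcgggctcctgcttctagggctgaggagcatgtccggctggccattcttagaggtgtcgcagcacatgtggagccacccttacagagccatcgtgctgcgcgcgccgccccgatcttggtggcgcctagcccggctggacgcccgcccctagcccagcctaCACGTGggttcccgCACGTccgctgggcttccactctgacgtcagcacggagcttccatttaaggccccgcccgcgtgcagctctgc
Pfkfb3: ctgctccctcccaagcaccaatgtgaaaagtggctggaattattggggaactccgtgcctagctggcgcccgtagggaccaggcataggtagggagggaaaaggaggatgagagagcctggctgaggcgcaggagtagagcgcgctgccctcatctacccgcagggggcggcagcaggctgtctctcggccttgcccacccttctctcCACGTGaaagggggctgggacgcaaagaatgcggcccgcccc
CACGTG begins 216 bases before the start in Slc16a1, 87 in Ldha and 42 in Pfkfb3, and the single ACGTG of Aldoc 31 bases before it. RefSeq promoters were matched for 30 of the 33 genes, with 32 start sites. On both strands of these 250-base windows, ACGTG was found in 13 of 32 (40.6%), against 16.6% of all 33469 windows, and CACGTG, which contains it, in 4 of 32 (12.5%), against 5.59%. The fourth CACGTG is that of Pdk2. Genes called neither over 6 arrays nor without induced replicate 3 also hold ACGTG: Aldoa, Eno2, Pdk2, Pdk3, Pfkm, Pgm1, Pygb and Slc2a1. The GC box GGGCGG, a mark of GC-rich start regions, was in 20 of 32 windows (62.5%), against 30.5%. The DR1 element bound by Pparg, searched as a pair of AGGTCA with any base between, was in 0 of 32 windows and 0.0508% of all. These are matches of letters, and binding was not measured.

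Glucose enters through transporters and is phosphorylated by hexokinase. Of the 33 genes, Slc2a1, Hk2 and Gpi stand for these first steps, and none of them was called. Slc2a1, the basal glucose transporter GLUT1, read 9.40, 8.94 and 9.31 in control cells (replicates 1, 2 and 3, the order of all such values) and 9.21, 9.26 and 8.46 in induced cells, so only induced replicate 3 was below the control range (change -0.24, 95% interval -0.82 to 0.35, and 0.02 without it). Hk2, the insulin-responsive hexokinase, stood at 0.56 (adjusted p = 0.404), or 0.21 without induced replicate 3, with induced replicate 3 at 9.37 and the other 5 arrays between 7.88 and 8.48. Gpi, which isomerises glucose 6-phosphate, stood at 0.41 (adjusted p = 0.349), or 0.19 without that array. Its 3 induced values (12.06, 11.91 and 12.64) all lay above the control values (11.79, 11.82 and 11.78).

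Phosphofructokinase sets the pace of glycolysis, and its subunits did not share a direction. Pfkl, the liver-type subunit, stood at 0.87 (adjusted p = 0.347), reading 7.65, 8.0 and 7.31 in control and 7.95, 8.13 and 9.50 in induced cells, so the groups overlapped, and without induced replicate 3 it stood at 0.38. Pfkp, the platelet type, had its lowest value, 7.33, on that array, where the remaining 5 read 7.99 to 8.66. Its estimate was -0.17 with induced replicate 3 and 0.22 without it. Pfkm, the muscle type, read 6.90, 6.85 and 7.07 in control and 7.03, 7.04 and 7.15 in induced cells (change 0.13, 95% interval -0.13 to 0.40).

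The bifunctional enzymes that make fructose 2,6-bisphosphate, the strongest activator of phosphofructokinase, had the largest estimates in glycolysis. Pfkfb1, the isoform known from liver and muscle, read 5.56, 5.38 and 5.37 in control and 7.49, 7.48 and 9.95 in induced cells. The groups were far apart, and induced replicate 3 was 2.47 above the mean of the other induced arrays. The change was 2.87 (SE 0.65, adjusted p = 0.106), and 2.05 without induced replicate 3 (SE 0.12, adjusted p = 0.00116). Pfkfb3, the isoform with the highest kinase over phosphatase activity, read 7.03, 7.05 and 7.19 in control and 8.40, 8.36 and 9.63 in induced cells. Its groups did not overlap either, with a change of 1.71 (SE 0.34, adjusted p = 0.0866), or 1.29 without induced replicate 3 (adjusted p = 0.0044). Pfkfb2, the heart isoform, stood at 0.16, or 0.03 without induced replicate 3, and its groups overlapped.

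In the lower part of glycolysis the aldolase isoforms pointed opposite ways. Aldoc read 7.50, 7.17 and 7.37 in control and 5.81, 6.17 and 5.95 in induced cells, from a mean of 7.35 ± 0.17 to 5.98 ± 0.18 (SD, n = 3 arrays each). The groups were well separated, and induced replicate 3 lay between the other induced arrays. The fall was 1.36 without that array (adjusted p = 0.0116), and over 17 alternative settings the adjusted p ran from 0.0064 to 0.104. Aldoa, the ubiquitous aldolase, read 10.67, 10.79 and 10.70 in control and 11.02, 11.05 and 11.69 in induced cells. Its induced arrays were all higher, with an estimate of 0.53 (SE 0.20, adjusted p = 0.238), or 0.32 without induced replicate 3. Pgk1, a phosphoglycerate kinase that makes ATP, stood at 0.37 (adjusted p = 0.421), or 0.16 without it. The neuronal enolase Eno2 stood at -0.50 (adjusted p = 0.673), an estimate set by induced replicate 3, which read 6.66 where the other 5 arrays ran from 7.59 to 8.68; without it the change was 0.04. In all, 1 of 13 measured glycolysis genes was called, and the median change was 0.37, or 0.19 without induced replicate 3.

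Lactate handling had the highest median of the branches with 4 or more genes, 1.34, and 1.28 without induced replicate 3. Slc16a1 read 10.00, 9.61 and 9.13 in control and 11.41, 11.42 and 11.22 in induced cells, from 9.58 ± 0.44 to 11.35 ± 0.11 (SD, n = 3). Here the spread lay among the control arrays, the lowest induced value was over 1 above the highest control value, and induced replicate 3 was the lowest induced array. Without it the rise was 1.83 (adjusted p = 0.017), and the adjusted p over the 17 settings ran from 0.00506 to 0.159. Slc16a3, which encodes the transporter MCT4 of highly glycolytic cells, did not follow: 5.95, 6.49 and 6.52 in control, 6.19, 6.29 and 6.17 in induced cells, with a change of -0.10 (95% interval -0.52 to 0.32).

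Both lactate dehydrogenase subunits were higher on every induced array, with the larger estimate for the heart-type subunit. Ldhb, common in tissues that oxidise lactate, read 8.08, 7.35 and 7.18 in control and 9.27, 9.42 and 11.32 in induced cells. The change was 2.47 (SE 0.56, adjusted p = 0.108), or 1.81 without induced replicate 3 (adjusted p = 0.0219). Ldha, the muscle-type subunit that favours lactate formation, read 9.57, 9.27 and 9.23 in control and 10.18, 10.05 and 10.60 in induced cells. Its change was 0.92 (SE 0.18, adjusted p = 0.0866), or 0.76 without induced replicate 3 (adjusted p = 0.0495). Whether the changes of the 2 subunits differ was not tested. For Ldhb, Slc16a1 and Ldha control replicate 1 was the highest control array, as it was for the adipocyte markers.

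**Figure D4:**
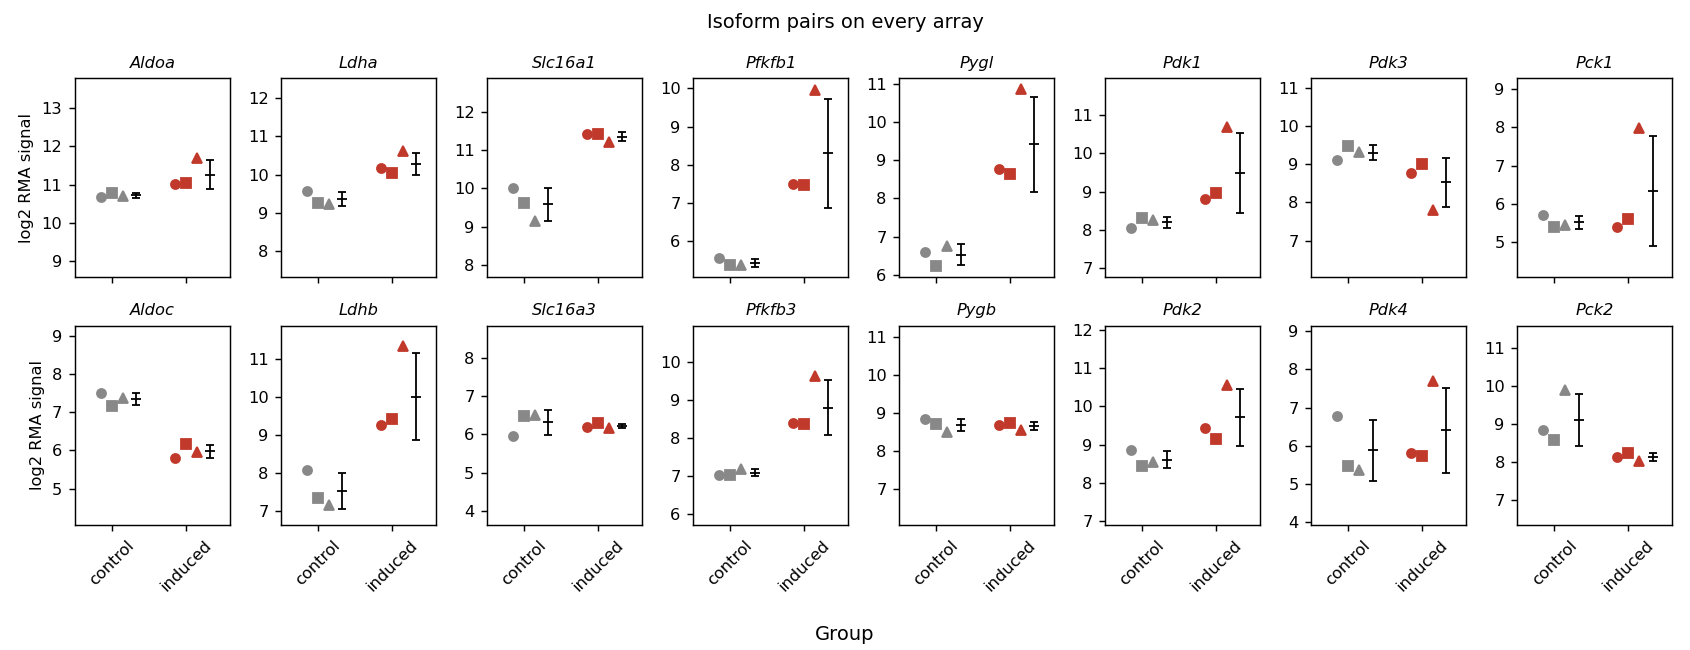
Log2 signal of isoform pairs on every array, each panel on its own axis of equal length, with black bars for mean ± SD (n = 3 arrays). Grey is control and red induced. Marks are circles, squares and triangles for replicates 1, 2 and 3. Aldoc falls and Aldoa lies higher, Slc16a1 rises while Slc16a3 overlaps, Pygl is higher on all induced arrays while Pygb overlaps, and Pck1 is high on induced replicate 3 alone.

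The pyruvate dehydrogenase kinases pointed in different directions, and 0 of 4 were called by limma (3 of 4 at an unadjusted p under 0.05). Pdk1, a known target of hypoxia-inducible factor, read 8.04, 8.30 and 8.25 in control and 8.79, 8.95 and 10.68 in induced cells, a change of 1.28 (SE 0.48, adjusted p = 0.248). Pdk2, the most widely expressed kinase of the family, read 8.85, 8.44 and 8.54 in control and 9.44, 9.16 and 10.56 in induced cells (1.11, SE 0.36, adjusted p = 0.197). All induced values of both were above all control values, and without induced replicate 3 the changes were 0.67 and 0.69 (adjusted p = 0.0533 and 0.0905). Pdk3 lay the other way, at 9.10, 9.48 and 9.32 in control and 8.77, 9.01 and 7.80 in induced cells (-0.77, SE 0.31, adjusted p = 0.273), or -0.41 without induced replicate 3. Pdk4, which fasting and glucocorticoids are known to raise, showed no common shift: it read 6.79, 5.47 and 5.38 in control and 5.81, 5.73 and 7.69 in induced cells. Its high values were on control replicate 1 and induced replicate 3, the arrays with the highest adipocyte markers of their groups; whether the 2 are linked was not tested. The change was 0.53 (95% interval -0.95 to 2.00) and turned to -0.11 without induced replicate 3.

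In the pentose phosphate pathway the largest estimates were those of transaldolase and transketolase, the enzymes that link it back to glycolysis, and 0 of 4 genes were called by limma (2 of 4 at an unadjusted p under 0.05). Tkt, transketolase, read 10.16, 10.22 and 9.94 in control and 10.63, 10.65 and 11.66 in induced cells (0.87, SE 0.29, adjusted p = 0.203). Taldo1, transaldolase, read 9.44, 8.98 and 8.84 in control and 9.68, 9.81 and 10.42 in induced cells (0.88, SE 0.24, adjusted p = 0.152). For both, every induced array was above every control array, and without induced replicate 3 Tkt stood at 0.53 and Taldo1 at 0.65. Rpia, which isomerises ribose 5-phosphate, read 7.97, 7.34 and 7.49 in control and 7.62, 7.87 and 8.23 in induced cells, and stood at 0.31 (adjusted p = 0.537), or 0.15 without induced replicate 3. Pgls, the lactonase of the oxidative arm, read 7.67, 7.88 and 7.88 in control and 7.57, 7.80 and 8.22 in induced cells, with a change of 0.06 (95% interval -0.38 to 0.50) that turned to -0.12 without that array. The groups overlapped for both of these.

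Among the glycogen genes the largest estimates were those of a phosphorylase, which breaks glycogen down, and of a regulatory subunit. Pygl, the liver-type glycogen phosphorylase, had the largest estimate of all 33 genes: it read 6.59, 6.22 and 6.75 in control and 8.78, 8.63 and 10.85 in induced cells. That is 2.90 (SE 0.58, adjusted p = 0.0866), and 2.18 without induced replicate 3 (SE 0.18, adjusted p = 0.00283). Pygb, the brain-type phosphorylase, read 8.83, 8.71 and 8.52 in control and 8.68, 8.75 and 8.55 in induced cells, with the smallest estimate of the 33 (-0.03, 95% interval -0.33 to 0.28). Ppp1r3b, which brings protein phosphatase 1 to glycogen, read 6.22, 5.79 and 6.56 in control and 6.93, 7.11 and 9.05 in induced cells (1.51, SE 0.56, adjusted p = 0.243). All its induced values were higher, and the change was 0.83 without induced replicate 3. Ugp2, which makes UDP-glucose for glycogen, read 9.10, 9.47 and 9.27 in control and 9.59, 9.88 and 10.69 in induced cells (0.77, adjusted p = 0.239, and 0.45 without that array). Gys1, the synthase of muscle and most tissues, read 8.25, 8.33 and 8.31 in control and 8.41, 8.35 and 9.24 in induced cells. Its groups did not overlap, but the difference was 0.08 without induced replicate 3, against 0.37 with it. Pgm1, phosphoglucomutase, stood at 0.23 (adjusted p = 0.667), and at -0.03 without it. Over 6 arrays limma called 0 of the 6 measured glycogen genes, with 3 at an unadjusted p under 0.05.

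The PEP carboxykinases had estimates of opposite sign over 6 arrays, and 0 of 2 were called by limma (1 of 2 at an unadjusted p under 0.05). Without induced replicate 3 neither estimate was positive (-0.01 for Pck1 and -0.91 for Pck2). Pck1, the cytosolic enzyme and a well-known adipocyte gene, read 5.71, 5.38 and 5.45 in control and 5.40, 5.61 and 7.98 in induced cells. Induced replicate 3 was thus 2.48 above the other induced arrays, which lay within the control range, and the change of 0.81 (SE 0.65, adjusted p = 0.577) became -0.01 without it. Pck2, the mitochondrial enzyme, read 8.85, 8.57 and 9.88 in control and 8.14, 8.25 and 8.04 in induced cells. All induced values were lower (-0.96, SE 0.33, adjusted p = 0.212), and control replicate 3 stood highest.

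Genes of the same pathways outside the 42 were counted from 8 lists, of which 78 of 96 genes were measured. Of these 2 rose and 0 fell, where 0.479% and 0.27% of all genes did. Both are well known in fat cells: Me1, the malic enzyme that yields NADPH, rose by 3.31 (adjusted p = 0.0144), and Gpd1, which turns a glycolytic intermediate into glycerol 3-phosphate, rose by 4.93 (adjusted p = 0.0189). Over the 17 alternative settings the adjusted p ran from 0.000377 to 0.0897 for Me1 and from 0.000378 to 0.105 for Gpd1. Both calls were lost without control replicate 2, control replicate 3 or induced replicate 1, and that of Gpd1 also without induced replicate 2. Without induced replicate 3 there were 12 of 78 called higher and 0 lower, where 2% and 1.07% of all genes were.

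The genes for entry of pyruvate into mitochondria and its use there were the most uniform in sign of these lists. Of their estimates 9 of 10 were positive, from -0.23 to 3.65, with 8 of 10 at an unadjusted p under 0.05. The median was 1.20 (0.76 without induced replicate 3), though 0 of 10 were called. Pc, pyruvate carboxylase, which makes oxaloacetate from pyruvate, read 8.35, 7.03 and 6.65 in control and 10.56, 10.45 and 11.97 in induced cells. At 3.65 (SE 0.56, adjusted p = 0.0507) it missed the threshold narrowly, and without induced replicate 3 it passed at 3.16 (adjusted p = 0.0211). Without that array 6 of the 10 rose, where 2% of all genes were called higher. These were Pc, Pdhb, Dlat, Dld, Pdhx and Mpc1, of which all but Pc were named after their values were seen. Dlat, Dld, Pdhb and Pdhx are parts of the pyruvate dehydrogenase complex that the kinases above act on, and Mpc1 is a subunit of the mitochondrial pyruvate carrier.

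In the other lists no further gene was called. Gys2, the liver-type glycogen synthase, had the largest estimate of the 17 glycogen genes outside the 42: it read 5.81, 5.08 and 5.01 in control and 8.29, 8.41 and 10.51 in induced cells. Its change was 3.77 (SE 0.60, adjusted p = 0.0553), and 3.05 without induced replicate 3 (adjusted p = 0.00283). The liver-type synthase and phosphorylase thus both lay higher on every induced array. Slc2a4, the insulin-regulated glucose transporter GLUT4, stood at 3.07 (adjusted p = 0.067), and was called without induced replicate 3 at 2.40 (adjusted p = 0.00123). Hcar1, the lactate receptor of adipocytes, stood at 1.91 (adjusted p = 0.205), and was called without that array at 1.11 (adjusted p = 0.0127). Slc16a7, of the same gene family as Slc16a1, was named after its values were seen. It had the 1 negative estimate among the 5 genes of the other lactate list, -0.69 (adjusted p = 0.238), and was lower on every induced array. Txnip, a glucose-responsive inhibitor of glucose uptake, stood at 1.10 (adjusted p = 0.122). Hif1a and Epas1, which encode alpha subunits of hypoxia-inducible factors and were named after their values were seen, lay in opposite directions. Hif1a read 11.38, 11.96 and 11.98 in control and 10.77, 10.84 and 10.76 in induced cells (-0.98, adjusted p = 0.0774). Epas1 read 9.81, 10.64 and 9.20 in control and 10.98, 10.84 and 10.77 in induced cells (0.98, adjusted p = 0.221). Hypoxia-responsive genes outside glycolysis had a median of -0.46, which turned to 0.09 without induced replicate 3, with 0 of 7 called (2 at an unadjusted p under 0.05), P4ha2, a collagen prolyl hydroxylase, standing at -0.90 (adjusted p = 0.222, and -0.58 without that array). Their mean was 8.11 on induced replicate 3 and 8.79 to 8.95 on the other 5 arrays. The genes did not move together on that array, as seen in single genes named after their values were seen. Adm (7.83) and Ndrg1 (6.97) had their lowest values there, and Vegfa (10.60) and Ankrd37 (5.87) their highest. Egln3, from the list of regulators that holds Hif1a, read 7.89 there and 5.06 to 5.43 on the other 5 arrays.

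**Figure D5:**
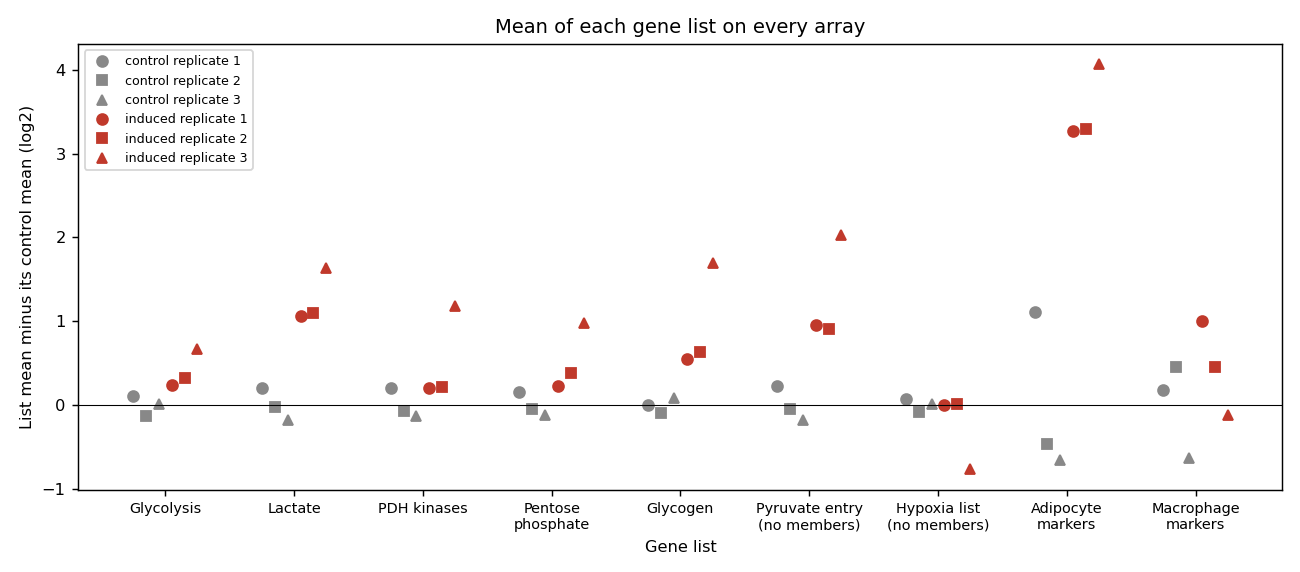
Mean log2 signal of each gene list on every array, as the difference from the mean of its control arrays. The glycolysis, lactate, pentose phosphate, glycogen and pyruvate entry lists are highest on induced replicate 3, as are the adipocyte markers, while the hypoxia list is lowest there. Macrophage markers overlap between groups.

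Markers of cell types were read on the same arrays. All 10 adipocyte markers were higher on every induced array, with a median change of 3.80 and 4 of 10 called, or 3.56 and 7 of 10 without induced replicate 3. Of 9 stromal markers 8 had negative estimates (median -0.88, 0 called, 5 at an unadjusted p under 0.05; without induced replicate 3, median -0.43, 6 negative and 1 called lower), with list means of 10.81 to 11.03 in control and 9.94 to 10.45 in induced cells. The 10 macrophage and leukocyte markers had means of 5.66 to 6.75 in control and 6.18 to 7.29 in induced cells, lowest in each group on replicate 3, with 0 called and 2 at an unadjusted p under 0.05. Without induced replicate 3, C1qb and C1qa, named after their values were seen, were called higher at 2.88 (adjusted p = 0.00123) and 0.92 (adjusted p = 0.0177). C1qb, a complement gene of macrophages, read 5.09, 4.98 and 4.96 in control and 8.17, 7.60 and 4.92 in induced cells, so it was high on induced replicates 1 and 2 and at the control level on induced replicate 3. Endothelial markers (4) ran from 4.86 to 5.19, skeletal muscle markers (5) from 5.87 to 6.27 and mural cell markers (5) from 6.81 to 7.17 in list mean, with 0 called and a single mural marker at an unadjusted p under 0.05. In such bulk cultures a larger share of cells expressing a gene and more RNA per cell cannot be told apart. The part of cell makeup in the changes of the 33 genes was not tested.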

How the data were processed

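RNA (6 µg of total RNA per array, per the labels' protocols) was hybridised to one-colour Affymetrix arrays. The authors deposited 1 log2 value per feature and array, summarised by RMA per the submitters' processing notes. The version and genome build are not given in the sources used here. RMA compresses low signals, so changes of dim genes are understated, and the number of arrays limits the precision.

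Of 36685 features, 18511 had 1 symbol, 575 several and 17599 none, and 18394 matched GRCr8 by gene number. The feature with the highest mean stood for each of 18166 genes. Groups came from the sample titles. limma 3.58.1 (R 4.3.3, lmFit and eBayes, two-sided, group only) had 4 residual and 2.65 prior degrees of freedom. On simulated data it called 50.7% of changes of 1 log2 unit, 94% of 2 and 97% of 4. There were 6 false calls among 17966 unchanged genes. The simulated noise was independent between genes and arrays, with no array set apart and no close pair. It therefore cannot show how the fit behaves with such arrays. Permuting 3 arrays against 3 cannot give p below 0.1 and was not used.

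The 42 genes, lists and tests were chosen with earlier results of these data known. Of the 33 genes, values on every array are given for called ones, for the 4 largest changes and the smallest of each branch, for whole branches of 5 or fewer, and for Slc2a1, Gpi and Aldoa. Of each list of other pathway genes, called genes or else the largest change are named. Alternatives were a replicate block, other features, filters, scalings, priors, array weights and arrays left out; leaving out control replicate 1 with induced replicate 3, and averaging induced replicates 1 and 2, were added after seeing the data.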

Additional observations from a re-analysis of the deposited data

How the results depend on the processing

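The calls depended on single arrays and on the fit. Over all genes 136 were called, and 2 of the 33. With 1 array left out, these counts ran from 2 to 557 and from 0 to 7. Without both replicate 3 arrays they were 740 and 7, with array weights 929 and 7, without control replicate 1 and induced replicate 3 together 978 and 9, with induced replicates 1 and 2 averaged to 1 sample 2 and 0, and over all 36685 features tested singly 69 and 1. The labels' numbers 1 to 3 were not treated as pairs, since the labels name no shared animal or day. Deviations of same-numbered arrays from their group means correlated at 0.023, 0.12 and 0.15, and those of differently numbered arrays at -0.14 to 0.12. Deviations within a group depend on each other and induced replicates 1 and 2 are close, so these values cannot decide whether arrays are paired. With a replicate block 12 genes and 0 of the 33 were called. The mean of a gene's features, the filter on dim genes, another centring or quantile step and a trend in the prior kept 2 of the 33, Slc16a1 and Aldoc. The median change of the 33 genes, 0.53, stayed above 0 and ran from 0.18 without both replicate 3 arrays to 0.65 without induced replicate 1.

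Signs turned for 9 of the 33 genes, all of them not called. With 1 array left out, changes ran from -0.38 to 0.022 for Slc2a1, -0.37 to 0.22 for Pfkp, -0.83 to 0.044 for Eno2, -0.29 to 0.000133 for Slc16a3, -0.11 to 0.98 for Pdk4, -0.12 to 0.21 for Pgls, -0.11 to 0.048 for Pygb, -0.029 to 0.39 for Pgm1 and -0.011 to 1.28 for Pck1. With array weights they were 0.041 for Slc2a1, 0.22 for Pfkp, 0.10 for Eno2, -0.11 for Pgls and 0.017 for Pygb. Without both replicate 3 arrays they were 0.069 for Slc2a1, 0.16 for Pfkp, 0.15 for Eno2, 0.024 for Slc16a3, -0.36 for Pdk4, -0.087 for Pgls and -0.043 for Pck1. Without control replicate 1 and induced replicate 3 they were 0.11 for Slc2a1, 0.42 for Pfkp, 0.26 for Eno2, -0.19 for Pgls, 0.10 for Pygb and -0.026 for Pgm1. The cause was not tested.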
